A study of Caenorhabditis elegans with 2 samples.

Results

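The genes of the small nuclear RNAs (snRNAs) and of the spliced leader RNAs were examined for binding of the T23F11.4 protein in late embryos of the nematode Caenorhabditis elegans. Members were all nuclear genes that Ensembl release 115 annotates with the biotype snRNA on the WBcel235 assembly, which gave 129 genes of 46890. By gene name or by a short conserved word in the RNA they fell into 12 SL1, 18 SL2, 10 SmY, 12 U1, 19 U2, 5 U4, 11 U5 and 22 U6 genes, and 20 genes stayed unclassified. Strain OP709 carries the unc-119(tm4063) mutation and the transgene wgIs709, which holds T23F11.4 with TY1, EGFP and 3xFLAG tags at its C-terminal end together with unc-119(+), and every embryo in the study came from it. Embryos of mixed sex were collected by egg bleaching and are labelled as late embryos of 4 hours, and chromatin was precipitated with an antibody to GFP. The series holds 1 group with 2 replicates, labelled as biological, so that no second genotype, tag or stage was available for comparison. A control experiment named in the labels was not analysed here. Whole embryos were used, so binding in more cells and stronger binding per cell cannot be told apart, and peak lists carry no cell type marker by which the stage or tissue could be checked.

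The spliceosome removes introns with the help of the U1, U2, U4, U5 and U6 RNAs, each packed with Sm or, for U6, LSm proteins. In nematodes, spliced leader RNAs donate a short capped leader to the start of many messenger RNAs: SL1 mostly to genes with their own promoter or first in an operon, SL2 to downstream genes of operons. SmY RNAs are small Sm-bound RNAs of nematodes that associate with this trans-splicing machinery. U6 is made by RNA polymerase III from a promoter outside the gene, while the other snRNAs are made by RNA polymerase II. Both kinds of promoter depend on a proximal element in front of the start that the SNAPc complex binds, and U6 promoters add a TATA box.

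The leader RNAs that the results turn on are shown first, to let the SL2 copies near the strongest regions be told from SL1. Capitals mark the leader, that is the bases from the first GG to the AG before the GT at which the RNA is cut, read 5′ to 3′ from the RefSeq WBcel235 assembly.
sls-2.1 (chrII:5844865-5844974, + strand): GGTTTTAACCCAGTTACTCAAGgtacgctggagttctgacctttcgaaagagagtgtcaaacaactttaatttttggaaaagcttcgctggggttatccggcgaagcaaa
sls-1.10 (chrV:17120694-17120791, - strand): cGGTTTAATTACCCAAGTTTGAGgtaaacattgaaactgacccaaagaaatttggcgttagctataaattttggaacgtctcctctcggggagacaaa
Of the 18 SL2 genes, 4 carry the leader of sls-2.1, namely sls-2.1, sls-2.2, sls-2.3 and sls-2.4. The SL2 genes hold 11 distinct leaders in all, of 21 to 23 bases. The annotated SL1 genes hold 1 leader, and 2 of the 12, sls-1.1 and sls-1.5, start after it.

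The 100 bases in front of the start are shown for SL2, U1 and U5 genes with and without a strong region. Capitals mark AACCCG and TGTCGG, the 6-base word held by the highest number of snRNA upstream windows whatever their signal and the next one unlike it, and in sls-2.1, sls-2.2 and sls-2.3 a run of 15 bases that these genes share with sls-2.4.
sls-2.1 (chrII:5844765-5844864, + strand): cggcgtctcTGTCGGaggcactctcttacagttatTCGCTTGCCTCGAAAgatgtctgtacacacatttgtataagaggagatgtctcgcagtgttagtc
sls-2.2 (chrII:5543498-5543597, + strand): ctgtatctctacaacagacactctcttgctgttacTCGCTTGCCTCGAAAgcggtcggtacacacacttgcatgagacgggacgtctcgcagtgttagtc
sls-2.3 (chrII:5544274-5544373, - strand): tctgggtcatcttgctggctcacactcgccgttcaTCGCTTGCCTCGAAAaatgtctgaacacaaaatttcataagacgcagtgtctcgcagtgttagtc
sls-2.14 (chrIII:11090524-11090623, - strand): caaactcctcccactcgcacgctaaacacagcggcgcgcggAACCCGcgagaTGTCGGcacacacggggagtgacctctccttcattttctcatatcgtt
sup-6 (chrII:12944968-12945067, - strand): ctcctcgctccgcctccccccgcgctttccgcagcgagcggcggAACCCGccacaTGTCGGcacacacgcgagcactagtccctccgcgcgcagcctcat
F38E11.10 (chrIV:9444542-9444641, + strand): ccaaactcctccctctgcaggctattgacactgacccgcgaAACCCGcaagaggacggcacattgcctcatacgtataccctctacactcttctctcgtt
For sls-2.1, sls-2.2 and sls-2.3 an optimal peak lay within 500 bp. The other genes shown, sls-2.14, the U1 gene sup-6 and the U5 gene F38E11.10, had weaker regions, described below.

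Of the 22 U6 genes 17 share their RNA sequence with other copies, so the 100 bases in front of the start are shown. Capitals mark the TATA word TATATAA, the word ATGTCTG and, where present, AACCCG.
W05B2.8 (chrIII:10989579-10989678, + strand): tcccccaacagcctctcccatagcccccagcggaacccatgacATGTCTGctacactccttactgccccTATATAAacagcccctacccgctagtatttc
R07E5.16 (chrIII:4414085-4414184, + strand): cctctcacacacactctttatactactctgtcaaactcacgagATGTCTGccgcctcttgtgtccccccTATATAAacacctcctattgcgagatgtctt
F54D8.7 (chrIII:5080899-5080998, - strand): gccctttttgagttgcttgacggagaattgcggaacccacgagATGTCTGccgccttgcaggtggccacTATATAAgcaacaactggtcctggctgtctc
C28A5.7 (chrIII:4426956-4427055, - strand): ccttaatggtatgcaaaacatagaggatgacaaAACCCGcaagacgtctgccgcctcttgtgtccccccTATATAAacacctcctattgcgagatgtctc
K09C6.12 (chrV:858991-859090, + strand): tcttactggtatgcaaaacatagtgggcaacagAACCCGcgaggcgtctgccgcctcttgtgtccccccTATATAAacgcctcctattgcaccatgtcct
K09B11.11 (chrIV:13435887-13435986, - strand): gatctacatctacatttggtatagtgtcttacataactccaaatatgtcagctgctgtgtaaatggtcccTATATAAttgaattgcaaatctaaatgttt
The first 3 of these windows belong to the U6 genes with an optimal peak. C28A5.7 had a region just under the weakest optimal peak, and K09C6.12 and K09B11.11 had no region within 500 bp in any list. Of the 36-base words in and 500 bp around K09B11.11, 57.1% occur once in the nuclear genome, the lowest share among U6 genes. The share was 84.6% at K09C6.12, 82.4% at C28A5.7 and 90.5% to 93.3% at the 3 genes with an optimal peak. The part of repeated sequence in the missing regions was not tested.

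Optimal peaks, the set that passed the authors' irreproducible discovery rate threshold, lay near SL2 and U6 genes and near no other snRNA family. A summit within 500 bp was found for 8 of the 129 members, or 6.2%, beside 2.55% of all nuclear genes and 2.27% of nuclear genes of at most 200 bp. Of those 23560 short genes 15363 are piRNA genes, of which 0.13% had an optimal peak, and without them the share of short genes was 6.27%. The share at snRNA genes was thus near that of short genes other than piRNA genes, a background added after the data were seen, and near the 5.75% of microRNA genes. The members with an optimal peak were 5 of 18 SL2 genes and 3 of 22 U6 genes, while the count was 0 for the SL1, SmY, U1, U2, U4, U5 and unclassified genes. The same share was 27.5% for tRNA genes, which RNA polymerase III makes from promoters inside the gene, and 16.8% for snoRNA genes. The share of the SL2 genes alone was 27.8%. These are counts over annotated genes, and no test between classes was run. The 8 genes were reached by 8 of the 635 nuclear optimal peaks, since sls-2.2 and sls-2.3 share a peak and W05B2.8 has a second one.

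**Figure D1:**
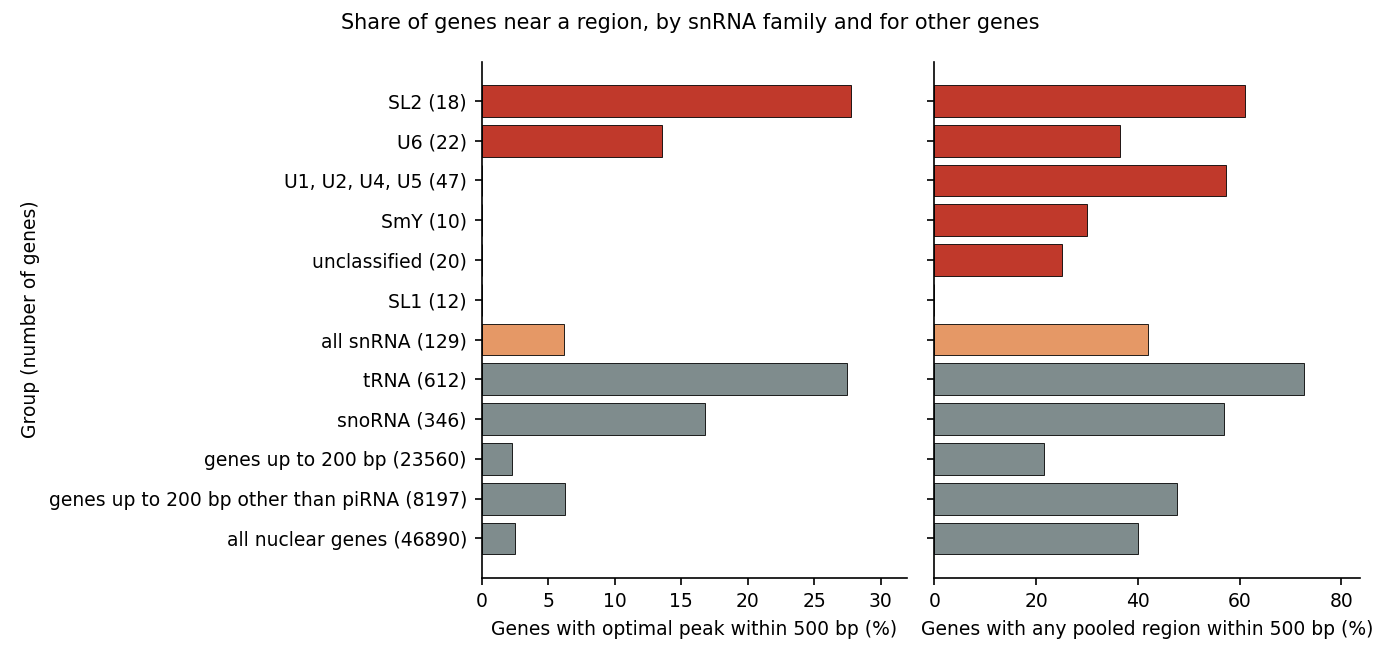
Share of genes, in percent, with an optimal peak (left) or any pooled region (right) within 500 bp, for snRNA families, all snRNA genes, tRNA genes, snoRNA genes, genes of at most 200 bp with and without piRNA genes, and all nuclear genes, with the number of genes in brackets. On the left only SL2 (27.8%) and U6 (13.6%) stand above 0 among the snRNA families. On the right the U1, U2, U4 and U5 genes together reach 57.4%, beside 47.6% of short genes other than piRNA genes. A region in both replicates, not drawn, was found at 34% of the former and 30.3% of the latter.

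Among SL2 genes the optimal peaks lay at a small set of copies. The peak at sls-2.4 (WBGene00004836, chromosome I 4172206 to 4172315, + strand) had a pooled signal of 284.9, the 76th of the nuclear regions. Its signal was 105.6 in replicate 1 and 190.9 in replicate 2, at ranks 69 and 71 of those lists. The summit lay 105 bp after the start, inside the 110 bp gene and 5 bp from the ncRNA gene R12E2.18. The nearest coding gene was R12E2.11, 127 bp from the summit.

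The peak at sls-2.1 (WBGene00004833, chromosome II 5844865 to 5844974, + strand) was almost as strong, with 284.5 in the pooled list, 123.1 in replicate 1 and 152.7 in replicate 2. Its summit lay 40 bp before the start in the pooled list and in replicate 1, and 43 bp before it in replicate 2. No other RNA gene lay within 500 bp of this summit, and the nearest coding gene was nep-25, 205 bp away. It ranked 77th in the pooled list, 44th in replicate 1 and 115th in replicate 2.

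A shared peak of signal 190.5 served sls-2.2 (WBGene00004834, chromosome II 5543598 to 5543707, + strand) and sls-2.3 (WBGene00004835, chromosome II 5544164 to 5544273, − strand). Its signal was 68.0 in replicate 1 and 120.4 in replicate 2. The summit lay inside sls-2.2, 94 bp after its start, and 472 bp from sls-2.3, which points towards it. The ncRNA gene C17C3.23 covers the same summit. Only the distance rule ties sls-2.3 to this peak, and at 200 bp it was lost.

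The fifth SL2 gene, sls-2.9 (WBGene00004841, chromosome I 13297877 to 13297985, + strand), had a pooled signal of 164.4, with 72.6 in replicate 1 and 103.3 in replicate 2. This summit lay 146 bp before the start, inside the tRNA gene M01E5.T1 and the ncRNA gene M01E5.8, and the part of the tRNA gene in this signal was not tested. Counting a peak only for its nearest short RNA gene removed sls-2.9 and sls-2.3 and left 6 members, 3 of them SL2 genes. A further optimal peak, of signal 179.6, lay 785 bp from sls-2.15, outside the 500 bp reach.

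The remaining 13 SL2 genes had lower or no signal. The pooled signal was 87.6 at sls-2.8, 78.6 at sls-2.14, 56.1 at sls-2.7, 51.1 at sls-2.6, 48.1 at sls-2.15 and 45.0 at sls-2.18. The summit counted for sls-2.15 lay inside sls-2.14 and 493 bp from sls-2.15. That for sls-2.6 lay 479 bp from it, inside the coding gene hgo-1. At sls-2.8 replicate 1 gave 18.4 and replicate 2 gave 68.6, so the replicates placed this gene differently, while at sls-2.14 they gave 39.7 and 47.6. In replicate 1 alone a weak region lay near sls-2.16 (signal 26.6) and near sls-2.17, whose region was weaker still. The genes sls-2.5, sls-2.10, sls-2.11, sls-2.12 and sls-2.13 had no region in any list.

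U6 held the strongest member of all. At W05B2.8 (WBGene00014543, chromosome III 10989679 to 10989780, + strand), which lies in an intron of the dynein heavy chain gene dhc-4, the pooled signal was 398.3, the 27th of the nuclear regions. Replicate 1 gave 151.1 and replicate 2 gave 249.4, at ranks 24 and 30. The summit lay 133 bp after the start, 32 bp beyond the gene. A second optimal peak of signal 131.3 had its summit 340 bp after the start. Neither optimal peak interval overlaps the gene, so W05B2.8 was lost when interval overlap replaced the distance rule. Both replicates placed their summits within 12 bp of each other, at 134 and 122 bp.

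The other U6 genes with an optimal peak had about equal pooled signals. R07E5.16 (WBGene00014484, chromosome III 4414185 to 4414286, + strand), in an intron of the mitochondrial pyruvate carrier gene mpc-1, had 132.6 in the pooled list, 56.8 in replicate 1 and 81.5 in replicate 2. Its summit lay 99 bp after the start, within 3 bp in all lists. F54D8.7 (WBGene00195000, chromosome III 5080798 to 5080898, − strand), outside coding genes, had 132.4 pooled, 37.0 in replicate 1 and 99.6 in replicate 2. This gene was the only one of the 8 outside the 635 strongest regions of a replicate, at rank 1613 in replicate 1. The replicate summits lay 99 bp apart there, the largest gap of the 8 members.

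Most U6 genes had weak regions or none. A pooled region lay at 6 of 7 U6 genes on chromosome III, which holds the 3 with an optimal peak. It lay at 1 of 12 on chromosome IV, 1 of 2 on V and 0 of 1 on I. C28A5.7 had a pooled signal of 113.3, with 32.9 in replicate 1 and 77.9 in replicate 2. The next were Y9C9A.111 with 65.7, F54C8.8 with 46.5, F32D1.12 with 44.1 and F54C8.9 with 35.5. In an intron lay 19 of the 22 U6 genes, including W05B2.8, R07E5.16 and C28A5.7.

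**Figure D2:**
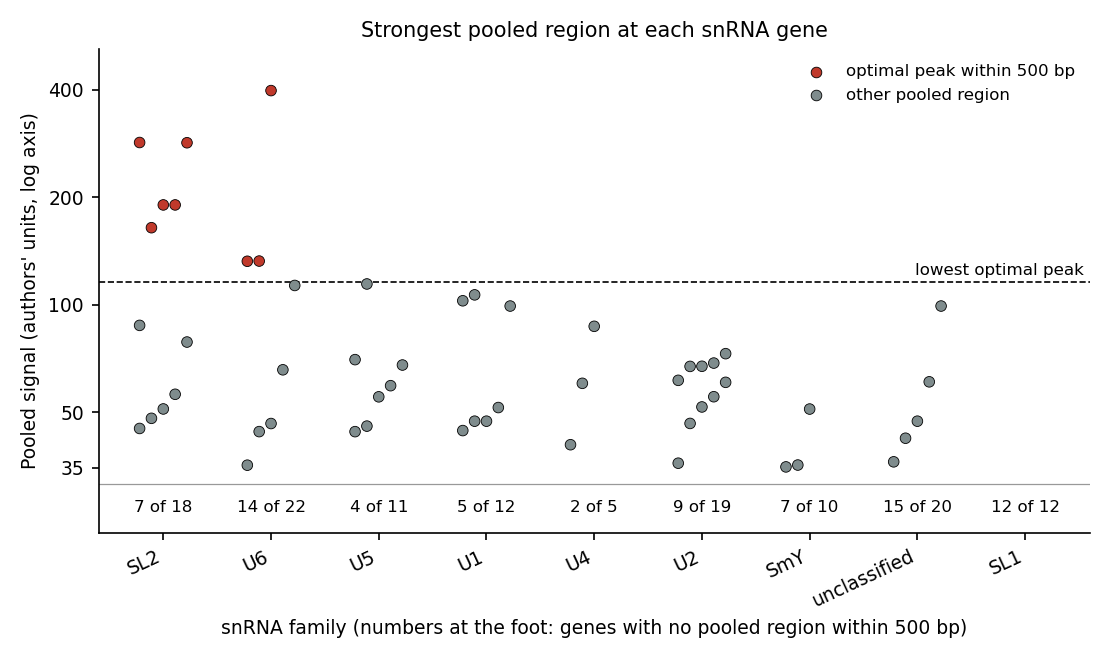
Pooled signal (authors' units, log axis) of the strongest region within 500 bp of each snRNA gene, by family. Red points have an optimal peak, grey points another pooled region, and the numbers at the foot count genes with no pooled region. The red points stand only under SL2 and U6, from 132.4 to 398.3, and 12 of 12 SL1 genes have no point.

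The members without an optimal peak that came closest to the weakest one, whose signal was 115.7, were a U5 gene and the U6 gene C28A5.7, and U1 genes followed at lower signals. The U5 gene F38E11.10 (chromosome IV 9444642 to 9444763) had a pooled signal of 114.4, rank 660, with 31.8 in replicate 1 and 72.5 in replicate 2. Its pooled summit lay 70 bp before the gene and 219 bp from the coding gene hsp-12.3. U1 pairs with the upstream splice site of introns. The U1 gene H27M09.6 had 106.6 pooled, 49.7 in replicate 1 and 57.6 in replicate 2. It was among the 635 strongest regions of replicate 1 (rank 507) and not of replicate 2 (rank 1649). Its pooled summit lay 64 bp before the gene and 144 bp from the coding gene syp-4.

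The U1 genes sup-6 and sup-39 are known for mutant alleles that suppress a splice site mutation. At sup-6 the pooled signal was 102.6, with 39.2 in replicate 1 and 73.6 in replicate 2. At sup-39 it was 99.2, with 37.2 and 71.5. The region at sup-39 also reaches mir-1831, a 22 bp gene annotated as snRNA inside it, so these 2 members rest on 1 region. At the U4 gene C52E4.8, U4 being the partner that U6 leaves on activation, the signal was 87.0, with 29.7 and 53.7. Its summit lay 11 bp before the U4 gene and 384 bp from the Sm protein gene snr-4.

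U2, which pairs with the branch site, had regions but no optimal peak, as did U1, U4 and U5. A pooled region lay near 10 of its 19 genes, or 52.6%, with signals of at most 73.0 and a median of 61.0. The share was 58.3% for U1, 60% for U4 and 63.6% for U5, beside 47.6% of short genes other than piRNA genes. The 7 U1 genes with a pooled region rest on 6 regions. A region in both replicates was found at 36.8% of U2, 25% of U1, 20% of U4 and 45.5% of U5 genes. For short genes other than piRNA genes that share was 30.3%, so the families lay on both sides of it. The strongest U2 genes were R05D7.6 with 73.0, F08G2.10 with 68.7 and C05G6.4 with 67.3. F08G2.10 had no region in replicate 1 and 53.4 in replicate 2. After F38E11.10 the U5 genes were led by ZK897.2 with 70.2 and F07C6.5 with 67.8, and after C52E4.8 the U4 genes T11F9.15 and T11F9.16 had 60.3 and 40.5.

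Of the 10 SmY genes 3 had a pooled region, with signals of 51.0 at smy-1, 35.6 at smy-6 and 35.1 at smy-10. The signals at smy-6 and smy-10 were near the lowest of the list, 34.9. The strongest unclassified genes after mir-1831 were T10H4.16 with 60.8 and T27E4.22 with 47.2. The latter is 99.4% identical to the U1 gene T27E4.12 and overlaps it, so their reads cannot be told apart. Of the 20 unclassified genes, 6 reached 70% identity or more with a named family, 2 of them U6, 1 each U1, U2, U5 and SL2.

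SL1 genes had no region within 500 bp in any of the lists. All 12 lie in the 5S rRNA gene cluster of chromosome V, 10 of them 173 to 177 bp from a 5S gene and the other 2 at 584 and 590 bp. The nearest pooled summit lay 992 bp from sls-1.12 and between 3532 and 9394 bp from the others. Only a median of 4.70% of the 36-base words in and 500 bp around SL1 genes occur once in the nuclear genome, against 90.4% over all members. The part of this repeated sequence in the absence of regions was not tested, and how the authors treated such reads is not given in the sources used here.

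Any region at all, in lists that hold peaks and background without a threshold, was about as frequent at snRNA genes as at nuclear genes in general and not more frequent than at short genes other than piRNA genes. A pooled region lay within 500 bp of 54 of 129 members, or 41.9%, beside 40% of all nuclear genes, 21.5% of those of at most 200 bp and 47.6% of the latter without piRNA genes, of which 7.52% had one. In replicate 1 there were 54 members, or 41.9%, beside 21.7% of nuclear genes of at most 200 bp and 46.4% of these without piRNA genes. In replicate 2 there were 46, or 35.7%, beside 19.4% and 42.4%. Of all 46890 nuclear genes, 18838 had a region in replicate 1 and 17282 in replicate 2. Both replicates had a region at 34 members, or 26.4%, against 27.6% of all nuclear genes. A region in replicate 1 alone was found at 20 members, one in replicate 2 alone at 12, and 59 members had none in any list. The 34 shared members included all 8 with an optimal peak.

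Among the 635 strongest regions of replicate 1 there was one within 500 bp of 8 members, or 6.2%, beside 2.44% of all nuclear genes and 5.69% of short genes other than piRNA genes. For replicate 2 it was 9 members, or 6.98%, beside 2.5% and 6.19%. The lists shared 7 members, namely the 5 SL2 genes, W05B2.8 and R07E5.16. Replicate 1 added H27M09.6, and replicate 2 added F54D8.7 and C28A5.7. Over the 34 members with a region in both replicates Spearman's rho of the signals was 0.71, a description across genes that share lists and, in part, regions. Replicate summits lay a median of 46.5 bp apart there, and 21 bp apart at the 8 members with an optimal peak.

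**Figure D3:**
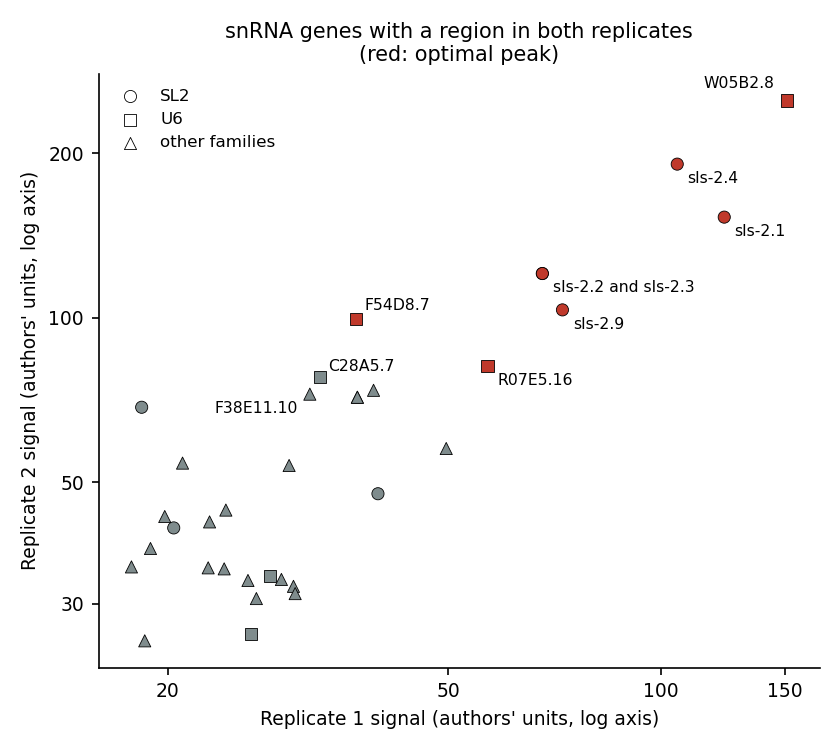
Signal in replicate 1 against replicate 2 (authors' units, log axes) for the 34 snRNA genes with a region in both, with circles for SL2, squares for U6 and triangles for other families. The 8 genes with an optimal peak, in red, reach at least 37.0 in replicate 1 and 81.5 in replicate 2, and F54D8.7 lies to the left of the others.

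By family, the median pooled signal of the genes with a region was 89.5 for U6 (8 genes) and 87.6 for SL2 (11 genes). It was 61.0 for U2, 60.3 for U4 (3 genes), 59.3 for U5 (7 genes), 51.5 for U1 (7 genes), 47.2 for unclassified (5 genes) and 35.6 for SmY (3 genes). All members together had a median of 60.4, against 53.3 over all nuclear genes with a region, 55.6 for short genes other than piRNA genes, 87.9 for tRNA genes and 70.7 for snoRNA genes. These medians leave out the genes without a region, which were 14 of 22 for U6 and 7 of 18 for SL2. They also depend on the list and the members counted, and no order of the families is read from them. Relative to the median of the list, the U1 median was 1.09 in the pooled list, 2.12 in replicate 2 alone and 1.82 in replicate 1 alone. The same ratio for U6 was 1.9 in the pooled list and 0.936 over the members whose sequence occurs once. The latter value rests on 1 gene. Of the 5 U6 genes whose sequence occurs once, only F32D1.12 had a pooled region, with its summit 289 bp before the start.

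Summits did not keep 1 side of the genes. Of the 54 pooled summits 23 lay before the start, 13 inside the gene and 18 beyond its end, with a median 83.5 bp after the start. Within 100 bp of the gene lay 32 of them. At the members with an optimal peak the positions were 40, 68 and 146 bp before the start for sls-2.1, F54D8.7 and sls-2.9. They were 94, 99, 105 and 133 bp after it for sls-2.2, R07E5.16, sls-2.4 and W05B2.8. The U2 summits ranged from 157 bp before to 335 bp after the start.

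**Figure D4:**
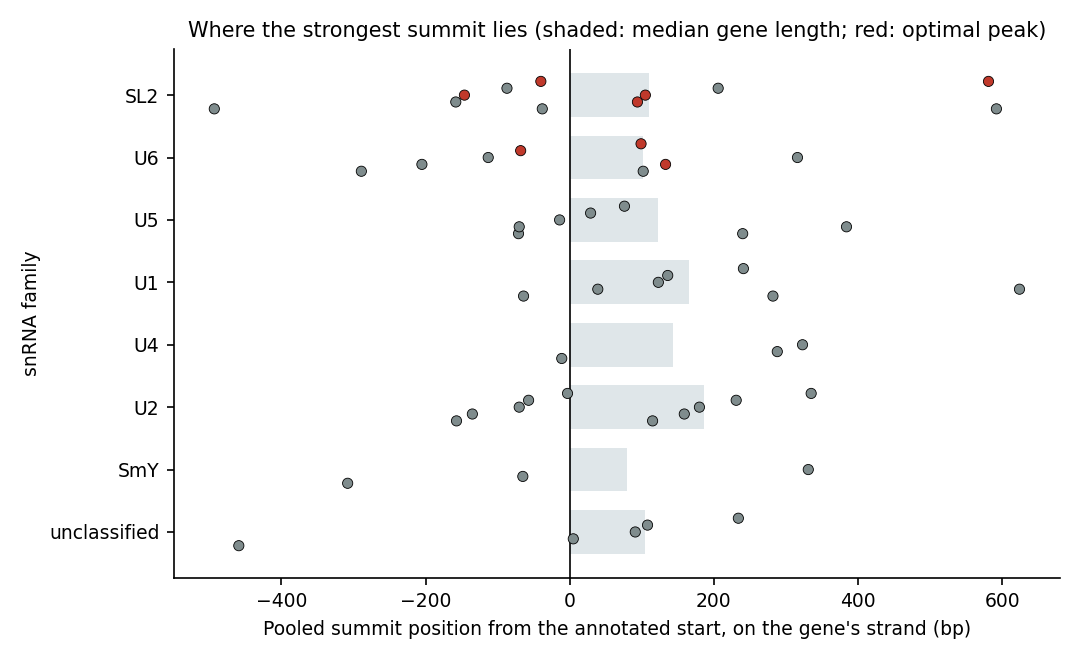
Position of the strongest pooled summit, in bp from the annotated start on the gene's strand, for each snRNA gene with a region, by family. Shaded bars give the family's median gene length and red points have an optimal peak; the red points lie on both sides of the start, from 146 bp before it to 581 bp after it (sls-2.3).

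Of the words common in snRNA upstream windows, 1 was absent, as an exact match, from the members with an optimal peak. AACCCG was found in the 100 upstream bases of 43 of 129 members, or 33.3%, on the gene's strand, beside 0.97% of all nuclear genes. It was present at 11 of 11 U5, 10 of 18 SL2, 7 of 12 U1 and 0 of 19 U2 genes, with its first base at a median position of −58 from the start. Of the 8 members with an optimal peak 0 held it, against 43 of 121 others. Only exact matches were counted, and 4 of the 8 are the related SL2 copies described below. The windows shown for W05B2.8 and F54D8.7 hold AACCCA, which differs in the last base, at −67. That is where AACCCG begins in the U6 genes that hold it. TGTCGG was found at 42 members, or 32.6%, beside 1.13% of all nuclear genes, with a median first base at −47. Of the 8 members with an optimal peak 3 held it, against 39 of 121 others. At sls-2.1, 1 of these 3, it began at −91, far from that median and the lowest position among the members. TATATAA, searched as the TATA word, was held by 15 of 22 U6 genes, and by 2.43% of all nuclear genes. In U6 genes it began at a median of −31, and all 3 with an optimal peak held it.

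The SL2 genes with the leader of sls-2.1 were also alike elsewhere. Their RNAs were 90.9% to 97.3% identical to each other and at most 80.9% identical to the other SL2 RNAs. Upstream, the 15 bases shown in capitals began at −65 from the start of each of the 4 and occurred 4 times in the nuclear genome, always there. These copies are thus related in sequence and are not independent cases. The run, which sls-2.9 does not hold, was found by comparing the other 4 SL2 genes with an optimal peak, after their values were seen. Its only occurrence within 150 bp of an optimal summit was at 1 of the 635 peaks, that of sls-2.1. The peak intervals at sls-2.2 and sls-2.4 also hold the run, which begins there more than 150 bp from the summit.

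Among U6 genes the word ATGTCTG, also found after the values were seen, began at −57 from the start of W05B2.8, R07E5.16 and F54D8.7. It was absent, as an exact match, from the other 19. It was held by 6 of 129 members, the others being sls-2.1, sls-2.3 and M163.13, and by 0.52% of all nuclear genes. Only exact matches were counted. The windows shown for C28A5.7 and K09B11.11 hold ACGTCTG and ATGTCAG at or next to the same position, each differing in a single base. Over the last 65 bases before the start, C28A5.7 was 92.3% identical to R07E5.16 and K09C6.12 was 86.2% identical, while F54D8.7 and W05B2.8 were 69.2% and 66.2% identical. K09C6.12 had no region in any list. The GC content of the upstream window was 47% to 55% at the 3 U6 genes with an optimal peak, and 25% to 53% with a median of 35% at the others.

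A tRNA promoter word, GTTCGANNC, was looked for on both strands within 150 bp of the summits. It was found at 3 of the 8 members with an optimal peak and at 0 of the 46 others with a pooled region. The 3 were sls-2.9, where a tRNA gene is annotated, and sls-2.1 and F54D8.7, where none is annotated within 500 bp of the summit. The word was held by 22.2% of all optimal summit windows, 2.92% of the other pooled windows and 72.1% of tRNA genes. Counted from the start, its first base lay at −168 at sls-2.1, on the opposite strand, and at −111 at F54D8.7, on its own strand.

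Protein genes that make, pack or process snRNAs were listed with earlier results of these data known, and 62 of 69 listed names were found. Of these 5, or 8.06%, had an optimal peak whose summit lay at most 1000 bp from a start. The share was 2.34% of all protein-coding genes, and no test was run. The Sm protein gene snr-1 had a pooled signal of 245.8, with 99.2 in replicate 1 and 151.2 in replicate 2, and a summit 418 bp from a start. The LSm protein genes lsm-3 and lsm-7, whose products belong to rings that bind U6 and other RNAs, had 182.8 at 935 bp and 121.0 at 243 bp. Integrator cuts snRNA precursors in animals. Its subunit genes ints-8 and ints-4 had 417.2 at 882 bp and 143.9 at 26 bp.

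Optimal peaks thus lay at 1 of 7 Sm, 2 of 7 LSm and 2 of 11 Integrator genes. The count was 0 of 15 for the spliceosome core, 0 of 8 for SNAPc subunits, 0 of 4 for the spliced leader particle, 0 of 4 for general transcription factors and 0 of 6 for assembly and export. Only snr-1, lsm-7 and ints-4 kept a peak within 500 bp of a start, a reach at which all protein-coding genes were not counted. None of the 5 summits lay closer than 5230 bp to an snRNA, tRNA, snoRNA, rRNA or microRNA gene, the nearest being mir-1832.2 at that distance from the summit of snr-1. The core gene prp-8, at rank 636 with 115.7, was the first region below the optimal set, and is named after its value was seen.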

How the data were processed

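Chromatin immunoprecipitation and sequencing of 2 replicates of 1 group was analysed from the deposited peak lists: 1 per replicate, 1 on pooled replicates and the optimal set. Per the deposited notes, coordinates are in ce11, and lists other than the optimal set include background regions, with no cutoff applied. The signal per region was computed by the authors, its relation to depth is unknown, as is the depth itself, and values served only for description and ranking inside each list. The deposited −log10 q-value was not used. The sources used here name no aligner or peak caller.

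Each gene took the strongest region whose summit lay within 500 bp of it, counting from 1. Families came from gene names and short conserved words, with SmY added by name after the lists were read. Symbols came from RefSeq by gene ID (129 of 129 matched), because Ensembl gives 44 members a shared name. Counts were set beside all nuclear genes, with no test, since there is 1 group. This design allows no p-value. Python 3.11.15, pandas 2.3.3, NumPy 2.4.6, matplotlib 3.10.9 and edlib were used, and the assignment of regions was tested on simulated data.

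Genes named were those with an optimal peak, the 3 strongest of each family, the 5 strongest without an optimal peak, pathway genes with an optimal peak within 1000 bp and genes sharing their regions. Other genes are named where a count of few is listed or after their values were seen. The members, lists and rule were chosen with earlier results of these data known. Alternatives were a reach of 200 or 1000 bp, midpoints, interval overlap, the nearest short RNA gene, genes of unique sequence, the nearest region, each replicate alone and the stronger part of the optimal set, with a background of short genes without piRNA genes added after the data were seen. The sequence of the U6 RNA is not reported here.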

Additional observations from a re-analysis of the deposited data

How the results depend on the processing

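The count of 8 members with an optimal peak ranged from 8 to 9 when each replicate's 635 strongest regions were used alone, sharing 8 of its genes without replicate 1 and 7 without replicate 2. It was 7 at 200 bp, 9 at 1000 bp, 8 by midpoint, and 6 by interval overlap, by the nearest short RNA gene or in the stronger part of the optimal set. With members whose sequence occurs once it fell to 5, since all 3 U6 genes have identical copies, and the count with a region in both replicates fell from 34 to 21. The median member signal over the list's median was 1.28, and became 1.43 at 200 bp, 1.35 by interval overlap and 1.13 with unique members. It ranged from 1.26 to 1.3 with 1 replicate left out. The median summit position of 83.5 bp ranged from 86.5 to 109.5 bp with 1 replicate left out and was 57.5 bp with the nearest region, and the cause was not tested. Pathway genes with an optimal peak fell from 5 to 3 at 500 bp. The counts of members with a pooled region or near the strongest regions of both replicates stayed within 1.5 times their value under every alternative run. Of 46 ranks of named members with 1 replicate left out, 43 lay on the same side of rank 635, and the others were F54D8.7, which left, and C28A5.7 and H27M09.6, which entered. The optimal share of nuclear genes of at most 200 bp was 2.27%, and 6.27% without piRNA genes. Depth, the control and repeated sequence limit these values: no read counts were available, the control was not analysed, and SL1, U2 and U6 copies share sequence. No paired analysis was possible because there is 1 group.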
